A study of Mus musculus with 6 samples.

Results

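Among the H3K27me3 peaks called in mouse embryonic fibroblasts that live on EED R302S, 387 lay wholly inside a site where EZH2 was called in cells with wild-type EED, and 839 did not. These 387 peaks, called inside peaks here, were chosen by position alone: every base of the H3K27me3 peak had to lie within EZH2 peaks. They made up 31.6% of the H3K27me3 list (95% Wilson interval 29.0% to 34.2%) and 18.5% of its length, 1.09 Mb. Another 561 peaks met an EZH2 peak and reached beyond it, and 278 met none. Each inside peak lay in 1 EZH2 peak, its host, and there were 377 hosts among 3449 EZH2 peaks (10.9%). Because both lists chose the members, what follows describes widths and positions and tests nothing.

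The cells were fibroblasts in which floxed EED had been removed with Cre, and 1 knockout clone was taken forward. Lentivirus then returned wild-type EED or EED R302S to that clone, so both groups lack their own EED and each stands for 1 clonal background. Chromatin was fixed, digested to single nucleosomes with micrococcal nuclease and pulled down with an antibody to EZH2 (wild-type rescue) or to H3K27me3 (R302S rescue), 1 library each. Antibody and EED form changed together between the lists, so their parts cannot be told apart, and the other 4 samples of the series were not analysed here. The lists hold positions only, in steps of 200 bp on build mm9, with no height or score, so the depth is unknown and a place outside a peak is a place with no call, not one shown to lack the mark.

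EZH2 is the catalytic subunit of Polycomb repressive complex 2, which puts methyl groups on histone H3 and keeps developmental genes silent. EED is the subunit that holds on to the finished mark, H3K27me3, and that contact makes the enzyme more active, so that the mark can move outward from the place where the complex first settles. The series title places this experiment in the question of how H3K27 methylation spreads. Inside peaks are those whose called extent goes no further than the called enzyme. The mark was called in the R302S rescue and the enzyme in the wild-type rescue, so these extents come from different cells.

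Inside peaks were short. Their median width was 2200 bp (95% order-statistic interval of the median 2000 to 2400 bp), with quartiles of 1200 and 3400 bp and a range of 400 to 23800 bp. The peaks that reached beyond EZH2 sites had a median of 6000 bp (5600 to 6600 bp), and those away from EZH2 a median of 800 bp (800 to 1200 bp). The rule itself caps an inside peak at the width of its host, so part of the first difference is built in. The intervals count peaks of 1 library, and neighbouring peaks are not independent.

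Hosts were about as wide as the other EZH2 sites that met H3K27me3, and wider than those that met none. Their median was 4400 bp (interval 4000 to 4600 bp), while the 580 EZH2 peaks met only by H3K27me3 peaks that reached outside had a median of 4200 bp (4000 to 4600 bp). The 2492 EZH2 peaks that met no H3K27me3 peak had a median of 2000 bp. Hosts ran from 1000 to 47000 bp, and sites met only from outside from 800 to 35400 bp. Sites holding an inside peak and sites met only by peaks that reached outside thus had similar EZH2 widths, and both were wider than sites with no H3K27me3 call. A wide site can meet or hold a peak more easily, so part of the latter difference is built in.

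**Figure D1:**
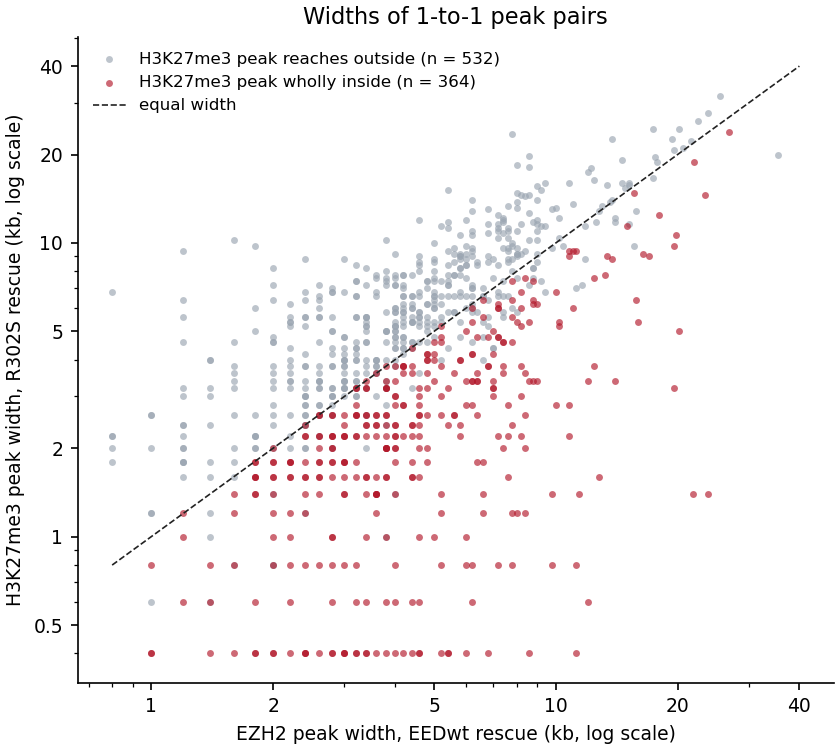
Width of the H3K27me3 peak (vertical, kb, log scale) against width of the EZH2 peak (horizontal, kb, log scale) for 896 pairs in which each peak met only the other; each point is 1 pair and the dashed line marks equal width. The 364 pairs with the H3K27me3 peak inside lie on or below the line, and 350 of the 429 pairs below the line are inside.

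Widths were set side by side in the 896 pairs of 1 H3K27me3 peak with 1 EZH2 peak, of which 364 (40.6%, 37.5% to 43.9%) were inside. When the H3K27me3 peak was the narrower, it stayed inside in 350 of 429 pairs (81.6%, 77.6% to 85.0%). Counting every 200 bp shift at which peaks of those widths still overlap, a mean of 35.9% of the shifts would put the narrower peak inside. Even for peaks of over 75% but under 100% of the EZH2 width, 77 of 129 were inside (59.7%, 51.1% to 67.8%), where 10.4% of the overlapping shifts are. Of 38 pairs with equal widths, 14 matched base for base at both ends (36.8%, 23.4% to 52.7%), against 3.50% of the shifts. Shifts are a count of possible placements given an overlap, not a test, and they treat the genome as having no preferred point.

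The shares by width class are given as a description, because the rule fixes much of them: an H3K27me3 peak wider than its EZH2 peak cannot be inside, and 0 of 429 such pairs were. Among pairs with an H3K27me3 peak of 400 to 1400 bp, 89.3% were inside (82.5% to 93.6%, 121 pairs), and the share was 61.9% at 1600 to 3400 bp, 27.1% at 3600 to 6400 bp and 8.85% at 6600 bp or more (6.0% to 12.9%, 260 pairs). By EZH2 width it was 20% at 800 to 1400 bp (10.9% to 33.8%, 45 pairs), 38.2% at 1600 to 2400 bp, 43.8% at 2600 to 4200 bp and 41.3% at 4400 bp or more. From 1600 bp of EZH2 width upward the intervals of that share overlapped.

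Inside peaks covered very different shares of their hosts. The median inside peak covered 53.5% of its host (interval 50% to 57.1%, quartiles 28.2% and 74.2%, range 3.57% to 100%). All inside peaks together covered 1.09 of 2.17 Mb of host, or 50.1%. No single coverage was typical: 67 peaks covered under 20% of the host (17.3%, 13.9% to 21.4%), 77 covered over 80% (19.9%, 16.2% to 24.2%), and 243 lay between. The 67 low-coverage peaks were short, with a median of 600 bp in hosts of 5400 bp, and the 77 high-coverage ones had a median of 3600 bp in hosts of 3800 bp.

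**Figure D2:**
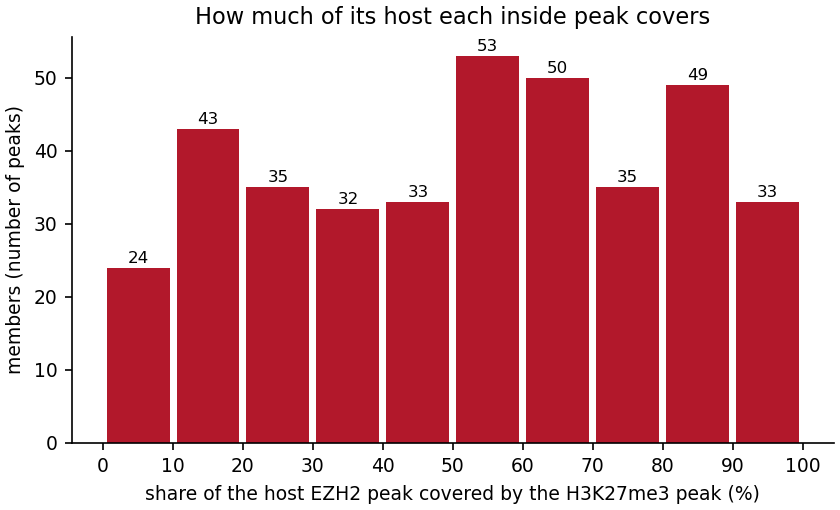
Number of inside peaks (vertical) by the share of the host EZH2 peak that each covers (horizontal, classes of 10%); the last class includes the 14 peaks that fill their host. Counts run from 24 in the lowest class to 53 between 50% and 60%, with no class empty.

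Wider hosts held wider inside peaks but were covered less. In hosts of 1600 to 2400 bp the median inside peak was 1400 bp and covered 70.0% (47 peaks). In hosts of 2600 to 4200 bp it was 2000 bp and 60.0% (130 peaks). In hosts of 4400 bp or more it was 3400 bp and 47.8% (201 peaks, quartiles 23.5% and 67.7%). The 9 peaks in hosts of 1000 to 1400 bp had a median of 600 bp and covered 50%, so the fall in coverage does not include the narrowest hosts. Over all 387 peaks member and host widths gave Spearman rho = 0.54 and, on log2 widths, Pearson r = 0.53, and coverage fell with host width with rho = -0.23. These coefficients are across peaks of the same 2 libraries, and a member cannot be wider than its host, which alone pulls widths together. Coverage has host width as its divisor, so part of its fall is built in as well.

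Most inside peaks were clear of both edges of the host. Neither edge was touched by 295 of them, 78 touched 1 edge and 14 filled the host. The smaller margin to an edge had a median of 400 bp and the larger one 1400 bp. The side showed no lean: 39 touched only the edge at the lower coordinate and 39 only the higher one, 178 lay nearer the lower edge and 166 nearer the higher, and 29 with room to spare were centred exactly.

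In absolute terms the inside peaks sat near the middle, but much of that followed from their size. The centres of peak and host were a median of 400 bp apart, and 294 of 387 peaks (76.0%, 71.5% to 80%) had their centre in the central part of the host, from 33.3% to 66.7% of its length. If every 200 bp position open to each peak in its host were used equally, 69.9% would. Likewise 23.8% touched an edge (19.8% to 28.3%), against 28.1% of the open positions. On a scale from 0 (touching an edge) to 1 (centred), the 373 peaks with room had a median of 0.50 (0.44 to 0.55). At 0.8 or above lay 22.3% of them (18.3% to 26.7%), against 19.0% of open positions. The whole set thus lay only a little nearer the centre than its open positions do.

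The lean to the centre differed in size between classes of width and of room. For the 364 inside peaks that were the only H3K27me3 peak of their host, 79.7% were central (75.2% to 83.5%), against 71.6% of open positions. Among those 400 to 600 bp wide, 31 of 49 were central (63.3%, 49.3% to 75.3%), against 39.3% of open positions. At 800 to 1400 bp the shares were 62.7% (50% to 73.9%) and 53.4%, so the interval held the open share. At 1600 to 2600 bp they were 88.5% (81.7% to 93.0%) and 77.5%. At 2800 bp or more they were 85.1% (78.1% to 90.1%) and 86.2%, so the widest peaks showed no such lean on this measure. An open share that high leaves the measure little room to rise. Of these widest peaks 32.8% touched an edge (25.5% to 41.2%), against 29.2% of open positions.

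Sorted instead by the host length left uncovered, the lean was widest at 2200 to 4000 bp, where 75 of 94 peaks were central (79.8%, 70.6% to 86.7%), against 59.1% of open positions, and 6 touched an edge (6.38%, 2.96% to 13.2%), against 13.3%. At 1000 to 2000 bp the central shares were 83.8% (75.6% to 89.6%) and 74.8%. With 4200 bp or more uncovered, 32 of 69 were central (46.4%, 35.1% to 58.0%), against 49.0%. In the hosts with most length left uncovered, then, sole inside peaks lay about as often in the middle as an even use of the positions gives. With the inside peaks that shared their host added, 40.9% of 88 were central (31.2% to 51.4%), against 47.4% of open positions. Differences between these classes were not tested.

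**Figure D3:**
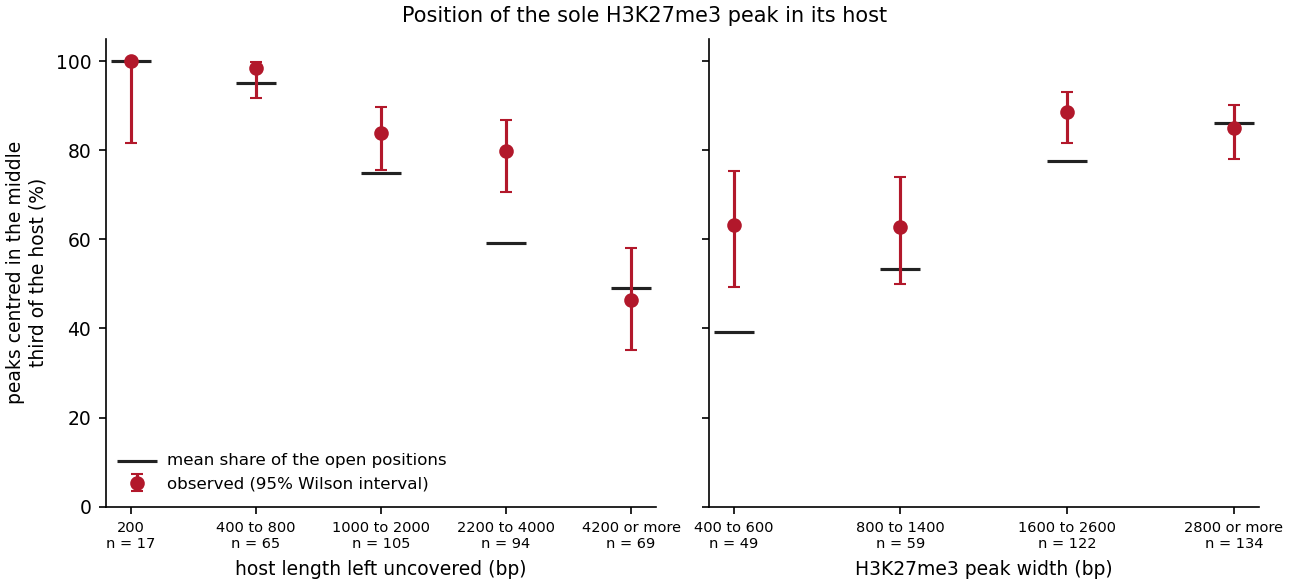
Share of inside peaks centred in the central part of the host (33.3% to 66.7% of its length; vertical, %), for hosts with 1 H3K27me3 peak, by host length left uncovered (left, bp) and by H3K27me3 peak width (right, bp). Points are observed shares with 95% Wilson intervals and dashes the mean share of open positions: the points stand above the dashes most clearly at 2200 to 4000 bp uncovered and at widths of 400 to 600 bp, and meet them at 4200 bp or more uncovered and at widths of 2800 bp or more.

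The 5 widest inside peaks show how host coverage varies even among broad domains. The widest, 23.8 kb on chromosome 19 (6490401 to 6514200), covered 88.8% of a host of 26.8 kb (6490001 to 6516800), with 0.4 kb free on its lower side and 2.6 kb on the higher. A peak of 18.8 kb on chromosome 8 (125194601 to 125213400) covered 85.5% of its host with 1.4 and 1.8 kb free. A chromosome 2 peak of 14.8 kb (38192001 to 38206800) shared its lower edge with the host and left 0.8 kb free. On chromosome 17 a peak of 14.6 kb (56275801 to 56290400) covered 62.4% of 23.4 kb, with 0.4 kb free below and 8.4 kb above, and another of 12.4 kb (26978201 to 26990600) covered 68.9% of 18 kb. Of these 5, those on chromosomes 19, 8 and 2 came close to filling the EZH2 domain, and those on chromosome 17 left over 5 kb of it without a call.

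The widest hosts included the reverse case, broad EZH2 with a small patch of H3K27me3. The widest of all spanned 47.0 kb on chromosome 2 (74492201 to 74539200). It held an inside peak of 4.6 kb (74504601 to 74509200), and a separate H3K27me3 peak of 29.2 kb covered 27 kb of it and ran out over its upper edge. Both peaks together covered 57.4% of this host, so it was not itself such a case. On chromosome 8 a host of 23.8 kb (125276801 to 125300600) held 1 peak of 1.4 kb (125284201 to 125285600), 5.88% of its length. Another there, of 21.8 kb (125224401 to 125246200), also held 1 peak of 1.4 kb (125244201 to 125245600), 0.6 kb from its upper edge. A host of 19.6 kb on chromosome 4 (120402401 to 120422000) held a peak of 3.2 kb (120418201 to 120421400), again 0.6 kb from the upper edge. One of 20.2 kb on chromosome 17 (28269401 to 28289600) held a peak of 5.0 kb (28277001 to 28282000) with 7.6 kb free on each side. Among these 5 hosts, those with the most length outside their inside peak, that peak was exactly central in 1 and within 0.6 kb of an edge in 2. For the chromosome 2 host, much of that length was covered by the other H3K27me3 peak.

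Of these regions, 3 followed each other on chromosome 8 within 107.4 kb, a stretch singled out after its values were seen. Its 5 EZH2 peaks summed to 74.6 kb and its 3 H3K27me3 peaks, all inside, to 21.6 kb. The first host was covered to 85.5%, while the next large one, starting 9.2 kb after it, and the one starting 30.6 kb after that were covered to 6.42% and 5.88%. EZH2 domains of similar width (22.0, 21.8 and 23.8 kb) in 1 stretch thus differed widely in called H3K27me3. The other EZH2 peaks of the stretch met no H3K27me3 peak.

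Exactly 10 hosts held 2 inside peaks, and none held 3 or more. These hosts were 3.0 to 18 kb wide (median 8.1 kb), and the gap between their peaks was 1.2 to 7.2 kb (median 2.0 kb). Both peaks together covered 17.9% to 61.8% of the host. In 7 of the 10 the centre of the host lay in the gap or, on chromosome 13 (78336601 to 78343400), at its edge, so that the calls flanked it. No share of open positions was computed for 2 peaks in 1 host, so this count has no reference. On chromosome 13 (99122001 to 99140000) peaks of 6.2 and 4.8 kb stood 4.2 kb apart in a host of 18 kb. On chromosome 6 (52202401 to 52218600) peaks of 1.0 and 8.2 kb stood 3.6 kb apart in 16.2 kb. On chromosome 4 (150471601 to 150485400) peaks of 1.0 and 5.0 kb stood 7.2 kb apart in 13.8 kb, the first of them on the lower edge. The H3K27me3 list kept peaks apart at gaps from 1200 bp and the EZH2 list from 2200 bp, so the gaps under 2.2 kb in 5 of these hosts are ones that only the H3K27me3 list could keep.

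At the other extreme, 14 inside peaks had the same start and end as their host. They were 1200 to 5200 bp wide with a median of 2900 bp, so no broad domain was among them. Of the 5 widest, the pair on chromosome 7 were 5.2 kb (38553201 to 38558400) and 3.6 kb wide (150686601 to 150690200). The pair on chromosome 17 were 3.8 kb (15510801 to 15514600) and 3.4 kb wide (51970201 to 51973600), and 1 on chromosome 15 was 4.4 kb wide (31294601 to 31299000).

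The boundary of the set runs through a continuous range. Just inside it were 92 peaks with no margin on at least 1 side, followed by 69 with a smaller margin of 200 bp and 46 with 400 bp. Just outside were 54 peaks with 200 bp beyond the EZH2 site and 44 with 400 bp. The widest of the first kind that did not fill the host were the peak of 14.8 kb on chromosome 2 and peaks of 10.6 and 7.6 kb on chromosome 15 (78540201 to 78550800 and 75571201 to 75578800). The widest of the second kind were 20 kb on chromosome 19 (45215201 to 45235200), and 11.8 and 9.8 kb on chromosome 4 (from 115607601 up to 115619400 and from 129657801 up to 129667600). Over all 561 peaks that reached outside, the median length beyond was 1400 bp. A single 200 bp step therefore separates many members from peaks that are not.

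The share of EZH2-overlapping H3K27me3 peaks that lay inside was 40.8% in all (387 of 948, 37.7% to 44.0%) and varied between chromosomes. It was lowest on chromosome 7, with 9 of 54 (16.7%, 9.02% to 28.7%), against 42.3% on the rest (39.1% to 45.5%). It was highest on chromosome 17, with 26 of 41 (63.4%, 48.1% to 76.4%), against 39.8% on the rest (36.7% to 43.0%). Chromosome X had 10 of 16 (62.5%, 38.6% to 81.5%) and chromosome 8 33 of 55 (60.0%, 46.8% to 71.9%). The EZH2 peaks met by H3K27me3 had a median width of 3000 bp on chromosome 7 and 6100 bp on chromosome 17, and the overlapping H3K27me3 peaks 4400 and 3800 bp. On chromosome 7 the mark called in the R302S rescue was thus the wider, and on chromosome 17 the EZH2 called in the wild-type rescue. The mark was also the wider by median on several other chromosomes, where the share was below 40.8% except on chromosome 3 (47.2%). The part of these widths in the shares was not tested. The inside peaks themselves covered a median of 80% of the host on chromosome 7 and 35.6% on chromosome 17. These 2 chromosomes were picked as the extremes of 20, and their intervals make no allowance for that.

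**Figure D4:**
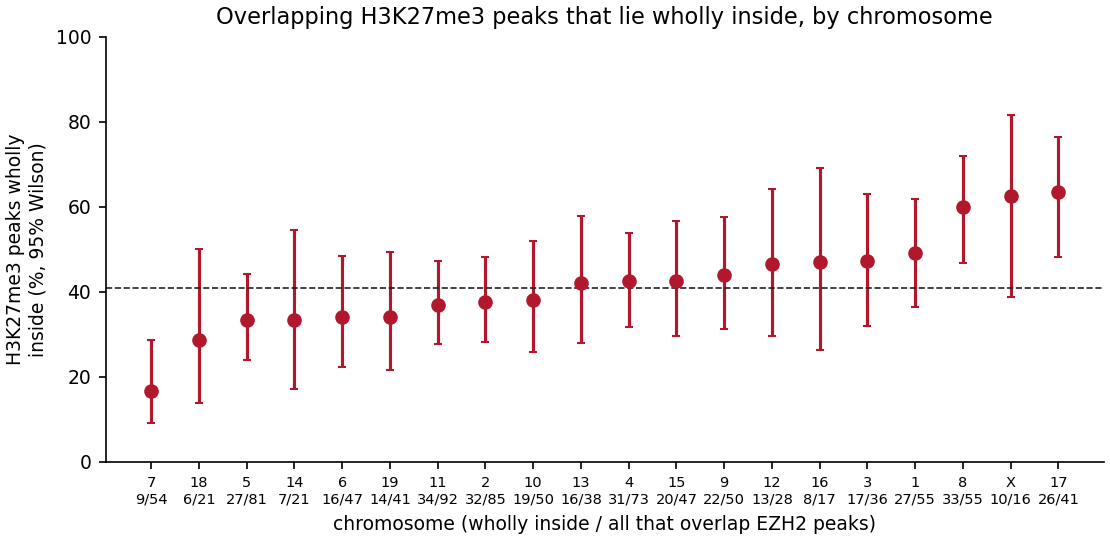
Share of EZH2-overlapping H3K27me3 peaks that lie wholly inside (vertical, %) by chromosome (horizontal, in order of the share, with both counts), with 95% Wilson intervals; the dashed line is the share over all chromosomes, 40.8%. Chromosome 7 lies lowest at 16.7% and chromosome 17 highest at 63.4%, and the intervals of most others include the line.

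Inside peaks, like those that reached outside, were mostly isolated. The nearest other H3K27me3 peak was a median of 327 kb away (quartiles 88.4 and 908.8 kb), and the quartiles for peaks that reached outside were close to these at 72.6 and 891.4 kb. Only 27 of 387 had a neighbour within 5 kb (6.98%, 4.84% to 9.96%), close to the 29 of 561 peaks that reached outside (5.17%, 3.62% to 7.33%), against 91 of 278 of the peaks away from EZH2 (32.7%). In 18 of those 27 the neighbour was another inside peak, and all 18 of these neighbours lay in the same host. The nearest other EZH2 peak was a median of 89.2 kb from a host, 80 kb from a site met only by outreaching peaks and 28.4 kb from a site with no H3K27me3. Within 5 kb, 13.3% of hosts (10.2% to 17.1%), 13.6% of sites met only by outreaching peaks (11.1% to 16.7%) and 17.8% of sites with no H3K27me3 (16.4% to 19.4%) had another EZH2 peak.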

How the data were processed

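The files used were the deposited peak lists of 2 samples, EZH2 from the EEDwt rescue and H3K27me3 from the R302S rescue. The authors worked with Bowtie 1.0.0, deepTools and build mm9, per the submitters' processing notes; how peaks were called, against what control and whether on pooled reads is not given in the sources used here. Deposited starts all fell on a 200 bp grid and ends 1 bp before it, so ends were read as the last base. Positions are printed counted from 1.

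The smallest width was 800 bp for EZH2 and 400 bp for H3K27me3, and the smallest gap 2200 and 1200 bp. Overlaps were computed in Python 3.11.15 with numpy 2.4.6, pandas 2.3.3 and scipy 1.17.1; bedtools 2.31.1 gave the same 387 peaks, and the code was tested on simulated data. Intervals are 95% and cover counting error only. Open positions were enumerated, not drawn. Regions were named by fixed rules: the 5 widest members and hosts, and the 5 with most length outside the member among hosts with 1 member. Also named were the 5 widest that fill the host and the 3 widest on each side of the limit. The plan included hosts with 3 or more members, but there were none. All hosts with 2 members were summarised and drawn instead, a change to the plan, and positions are printed for only some of them. Members and rules were chosen with earlier results of these data known. The gene and promoter tables at hand are of another build, so no genes or sequences are given. Figures were drawn with matplotlib 3.10.9.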

Additional observations from a re-analysis of the deposited data

How the results depend on the processing

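With 13 alternatives, 63 of 85 recomputed values stayed inside the interval of the reported value, or within 1.5 times the reported count. Using the wider 50% of each list left 111 inside peaks, with a median width of 4800 bp in hosts of 7300 bp, a median coverage of 68.9%, 30.6% touching an edge, 83.8% central, a median position of 0.40, and 21.0% of pairs inside. Widening EZH2 peaks by 200 bp on each side was done only to choose members, and hosts were still measured as called. It gave a coverage of 57.6%, with 46.8% of pairs inside. Edge contact was 33.7%, but the added peaks crossed an edge of the host as called and were counted as contact, so that rise is by construction. Choosing members with EZH2 peaks narrowed by 200 bp on each side, hosts again measured as called, gave a coverage of 45.7% and 30.7% of pairs inside. The median position was then 0.64 and hosts were 4800 bp wide. Part of the rise in position is built in, because every peak that touches an edge was left out. Edge contact was 0% by construction, because each member chosen so keeps at least 200 bp of margin. Accepting peaks at least 95% inside gave 28.6% at an edge, again a rise by construction, because the added peaks cross an edge. Leaving out H3K27me3 peaks under 800 bp raised coverage to 60.0%, and joining EZH2 peaks within 5 kb lowered the central share to 71.4%. Counting a margin of 200 bp as contact gave 41.6%, against 46.6% of open positions. The middle 50% of the host held 88.4%, against 85.4% of open positions. For peaks with at least 400 bp of room, an alternative chosen after seeing the data, edge contact was 17.1%, against 21.9% of open positions. The planned description of genes and sequence was not made, for want of mm9 references. No paired analysis was possible because only 1 library stood behind each list, so none could be left out either.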
